A study of Ovis aries with 16 samples.

Results

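*AOX1* (ENSOARG00020014833) and *SULT2A1* (ENSOARG00020013754) encode aldehyde oxidase 1 and sulfotransferase 2A1, a pair of soluble liver enzymes that modify drugs, steroids and bile acids. They are 2 of the 26478 genes in the deposited count table. Both were selected because an earlier look at these same livers had found them higher after hypoxic pregnancy, so their difference between the groups is described here without a test. The RNA came from the livers of 16 singleton Welsh Mountain fetal sheep at 0.9 of gestation, with 1 polyA-enriched library per fetus. Ewes of the CON group (*n* = 9 fetuses, 5 male and 4 female) were kept at atmospheric O2. Ewes of the HOX group (*n* = 7 fetuses, 3 male and 4 female) breathed 10% O2 in isobaric chambers for 30 days of late gestation. The series text places collection near day 130, and the methods of the paper place it some days later.

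Aldehyde oxidase 1 carries a molybdenum cofactor, iron-sulfur clusters and a flavin. It adds oxygen to aldehydes and to nitrogen-containing rings, and passes the electrons to O2, which yields hydrogen peroxide and superoxide. Sulfotransferase 2A1 moves a sulfonate group from the donor PAPS onto dehydroepiandrosterone, other hydroxysteroids and bile acids, which makes them more soluble and easier to excrete. The first is thus an oxidising enzyme of drug metabolism and the second a conjugating one, and both are typical of hepatocytes.

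Total counts ranged from 24065959 to 29353692 reads in CON and from 23955166 to 33952503 in HOX libraries. Values are given as normalized counts (CPM, read counts scaled to a common library size with TMM factors) or as log2 CPM. A minimum of 250 reads in 8 or more livers left 8580 genes, which were fitted together and include both *AOX1* and *SULT2A1*. On the first principal component of log2 CPM, HOX animal 1 lay at 64.4 and all other livers lay from −15.6 to 6.23. Values without that liver are therefore given for a part of the results, and the others include it. The 9 hepatocyte genes that could be identified (*AGT*, *ASGR2*, *C9*, *CPN2*, *F7*, *FGG*, *HGFAC*, *SPP2* and *VTN*) had reads in every liver, and together measured 15526 to 31356 CPM.

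*AOX1* was about 1.9-fold as abundant in HOX livers as in CON livers. In CON livers it measured 106 CPM at the lowest, 193 at the median and 241 at the highest. In HOX livers the lowest, median and highest values were 146, 377 and 483 CPM. The groups overlapped through HOX animals 1 and 6, which had 146 and 176 CPM and lay inside the CON range, whereas the other 5 HOX livers, at 292 to 483 CPM, were all above the highest CON liver. At least 5 HOX livers stood above the highest CON liver in 0.944% of all genes fitted, and the groups did not overlap, with HOX higher, in 0.0117%. Since the gene was chosen on this contrast, nothing is read from these shares. The means were 178 ± 42.2 (SD, *n* = 9) in CON and 339.5 ± 138 (SD, *n* = 7) in HOX, and the fitted log2 fold change was 0.94 (SE 0.234). Without HOX animal 1 the HOX mean was 372 ± 119 CPM (SD, *n* = 6) and the log2 fold change 1.07 (SE 0.205).

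*SULT2A1* was about 2.9-fold as abundant in HOX livers by their means and 2.12-fold by their medians. CON livers ranged from 10.9 CPM in animal 7 to 64.5 CPM in animal 6, with a median of 27.1. HOX livers ranged from 17.7 CPM in animal 4 to 237 CPM in animal 7, with a median of 57.4. Only HOX animals 2, 3 and 7, at 118, 160.2 and 237 CPM, exceeded every CON liver. At least 3 HOX livers stood above the highest CON liver in 9.31% of the genes fitted. HOX animals 1 and 6, at 57.4 and 51.2 CPM, lay in the upper part of the CON range, HOX animal 5 had 31.9 CPM, just under the CON mean, and HOX animal 4 was lower than all CON livers but 1. Means were 32.7 ± 16.6 (SD, *n* = 9) and 96.3 ± 79.9 CPM (SD, *n* = 7), with a fitted log2 fold change of 1.56 (SE 0.455). Without HOX animal 7, the highest liver, the log2 fold change was 1.16, and without HOX animal 1 it was 1.65 (SE 0.473).

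**Figure D1:**
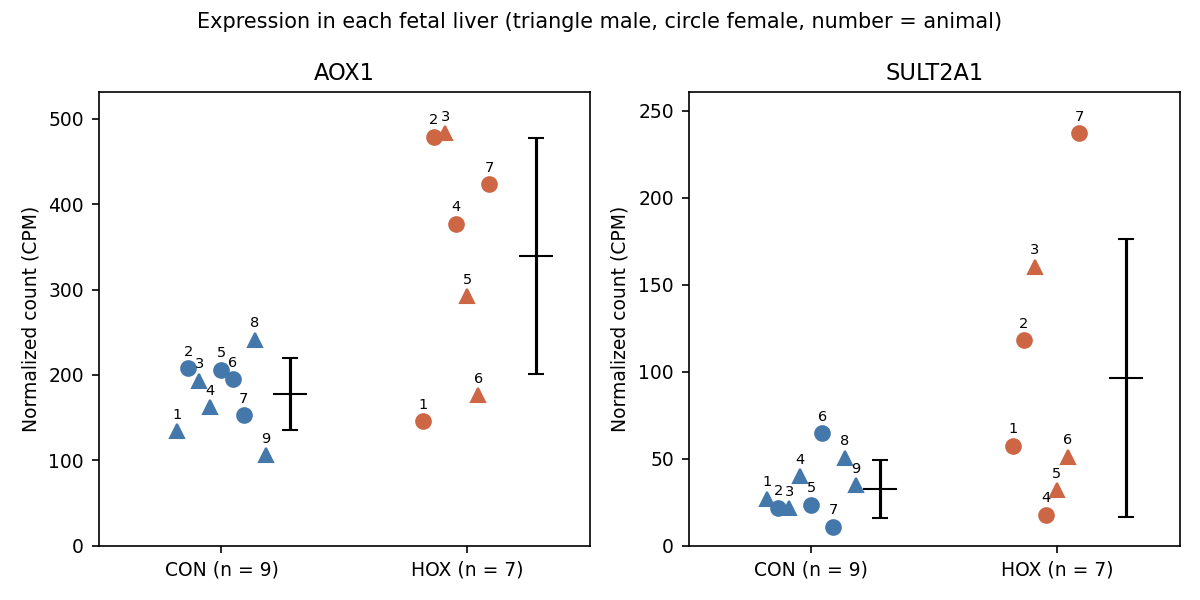
Normalized counts (CPM, vertical axis) of *AOX1* (left) and *SULT2A1* (right) in each CON and HOX fetal liver, with the animal number beside each point, triangles for males and circles for females, and the group mean ± SD as a bar. For *AOX1*, 5 of 7 HOX livers lie above the highest CON liver at 241 CPM, and for *SULT2A1*, 3 of 7 lie above the highest CON liver at 64.5 CPM.

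Both genes varied widely among livers. The liver with the fewest *SULT2A1* reads, CON animal 7, had 291, for which an exact Poisson interval (95%, counting error only) runs from 259 to 326. The liver with the most, HOX animal 7, had 5752 reads. For *AOX1* the counts ran from 2928 to 14798 reads, with a counting error of at most 1.85% in any liver. In CON livers the SD of log2 CPM was 0.37 for *AOX1* and 0.762 for *SULT2A1*, against a median of 0.238 over all genes fitted, and 261 of the 8580 genes varied more than *SULT2A1*. In HOX livers the SD was 0.698 for *AOX1* and 1.33 for *SULT2A1*, against a median of 0.279, and 67 genes varied more than *SULT2A1*. Across the HOX livers the highest value was 13.4-fold the lowest, and across the CON livers 5.89-fold.

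Values above the CON range fell together for the 2 genes in 3 HOX livers, and in no other HOX liver. All 3 HOX livers above the CON range in *SULT2A1* (animals 2, 3 and 7) were above it in *AOX1* too. These 3 also had the 3 highest *AOX1* values of all 16 livers, 423 to 483 CPM. The next highest in *SULT2A1*, CON animal 6 and HOX animal 1, ranked 9 and 14 of 16 in *AOX1*. CON animal 8 was high in both, with the most *AOX1* of its group (241 CPM) and rank 2 of its group in *SULT2A1* (50.4 CPM). HOX animals 4 and 5 exceeded the CON range in *AOX1* alone, at 377 and 292 CPM, and had 17.7 and 31.9 CPM of *SULT2A1*. In HOX animals 1 and 6 neither gene exceeded the CON range. Counted against the arithmetic CON mean of CPM, 3 of 7 HOX livers were above it in both genes, 2 in *AOX1* alone, 2 in *SULT2A1* alone and 0 in neither. Among CON livers the same counts were 2, 3, 2 and 2. The HOX count turned on 2 livers close to the mean, *SULT2A1* of animal 5 (31.9 CPM against a mean of 32.7) and *AOX1* of animal 6 (176 against 178). Against the mean of log2 CPM, 5 of 7 HOX livers were above it in both genes, 1 in *AOX1* alone (animal 4) and 1 in *SULT2A1* alone (animal 1). Taken singly, each enzyme exceeded its arithmetic CON mean in 5 HOX livers, and 28.1% of the genes fitted did so in at least 5.

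**Figure D2:**
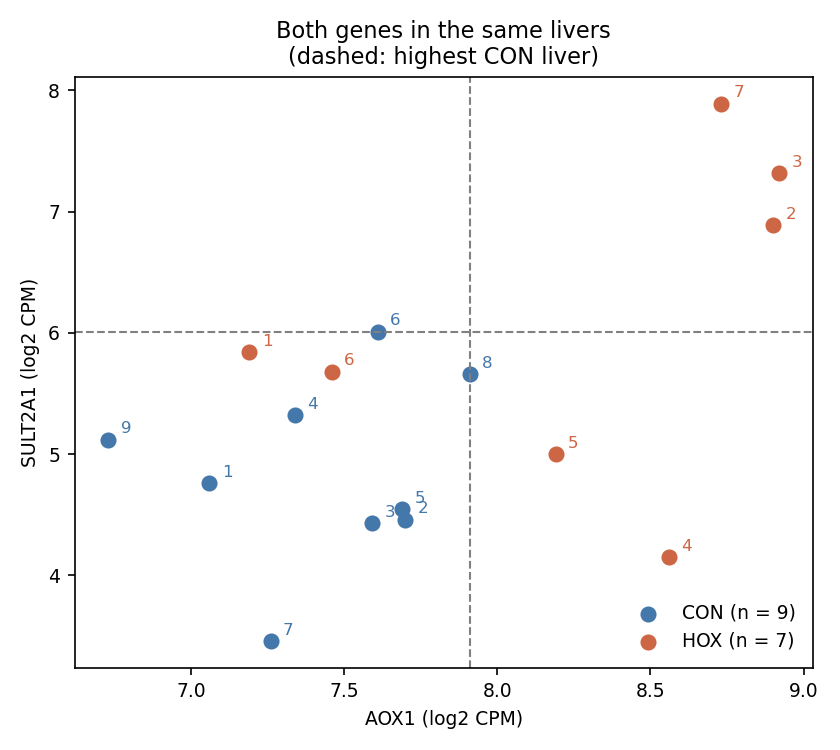
*SULT2A1* against *AOX1* (both in log2 CPM) in the 9 CON and 7 HOX livers, labelled by animal number, with dashed lines at the highest CON liver for each gene. HOX animals 2, 3 and 7 lie beyond both lines, animals 4 and 5 beyond the *AOX1* line alone, and animals 1 and 6 beyond neither.

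The ratio of the reads of both genes within a library does not depend on how libraries are scaled to each other. It compares livers and not the levels of the 2 genes, since transcript lengths were not used. CON livers had a median of 20.2 *SULT2A1* reads per 100 *AOX1* reads, with a range from 7.16 in animal 7 to 33.1 in animal 6. HOX livers had a median of 29.1, with a range from 4.7 in animal 4 to 56 in animal 7. HOX animal 4 thus had the lowest ratio of all 16 livers and HOX animal 7 the highest, and the CON range lay between them.

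Within the groups, where the difference between CON and HOX has no part, no relation between the genes was detected. Among CON livers Pearson's *r* of log2 CPM was 0.17 (exact permutation test, two-sided, *P* = 0.662) and Spearman's rho 0.17 (exact permutation *P* = 0.678). Among HOX livers *r* was 0.40 (exact permutation *P* = 0.358) and rho 0.54 (exact permutation *P* = 0.236). After Benjamini-Hochberg adjustment over the 14 relations computed, the adjusted *P* of *r* was 0.96 in both groups. Without the pair of livers farthest from the *AOX1* median, *r* was 0.47 in CON (animals 1 and 9 left out) and 0.70 in HOX (animals 1 and 6 left out), with exact permutation *P* values of 0.287 and 0.183. Single livers moved both values. In CON livers *r* was −0.03 without animal 8 and 0.37 without animal 9, and in HOX livers it was 0.29 without animal 3 and 0.69 without animal 4, the lowest and highest in each group with 1 liver left out. With 9 and 7 livers a moderate relation could be missed, and the values do not show that the genes varied independently.

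The other 12 relations set each gene against the total reads of the library, the mean log2 CPM of an erythroid list (*TFRC*, *EPOR*, *CPOX* and *ANK1*) and that of the 9 hepatocyte genes, since the fetal liver also makes blood cells. The strongest was between *SULT2A1* and the hepatocyte mean in CON livers, with *r* = 0.75 (exact permutation *P* = 0.0193, adjusted *P* = 0.27) and rho = 0.82 (exact permutation *P* = 0.0108, adjusted *P* = 0.151). It did not pass the adjustment, and stood at *r* = 0.71 without CON animals 4 and 6 (exact permutation *P* = 0.0653). In HOX livers the same pair gave *r* = 0.01 (exact permutation *P* = 0.991) and 0.56 without animals 1 and 5 (exact permutation *P* = 0.325), and the difference between the groups in this relation was not tested. None of the other 11 had an unadjusted *P* value under 0.05. *AOX1* and the erythroid mean gave *r* = −0.08 in CON and 0.46 in HOX livers, and *SULT2A1* and the erythroid mean −0.49 and 0.06. Single livers decided the HOX values. That of *AOX1* was 0.14 without animal 1, and that of *SULT2A1* was 0.72 without animal 4 and −0.33 without animal 7.

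The erythroid and hepatocyte lists both moved with the groups. All 4 erythroid genes were higher in HOX livers, with a median log2 fold change of 0.73 and a summed level of 169.7 to 533 CPM in CON and 259 to 772 CPM in HOX livers. Of the 9 hepatocyte genes, 8 were lower, with a median of −0.48 and a summed level of 21391 to 31356 CPM in CON and 15526 to 24334 CPM in HOX livers. edgeR called 0 of these 13 genes (0.0583% of all genes fitted), and DESeq2 called 5 hepatocyte genes (2.76% of all). All 13 had an unadjusted edgeR *P* under 0.05, as did 11.9% of all genes fitted and 71.4% of the tested genes with a symbol. *CD163*, a macrophage gene, had a log2 fold change of −0.60, with HOX animal 1 at 61.9 CPM and the other HOX livers at 172 to 326 CPM. *CD34*, an endothelial and progenitor gene, had 1.04. The mesenchymal and matrix genes *ASPN* and *TGFBI* split, 1 higher and 1 lower in HOX livers, with a median of −0.06. These genes were identified through the study's list of genes called on the same livers, so their difference between the groups is not independent evidence. Their part in the difference of *AOX1* and *SULT2A1* was not tested. In bulk tissue fewer cells of a type and less RNA per cell cannot be told apart.

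Neither gene differed detectably between male and female fetuses. *AOX1* measured 167 ± 52.5 CPM in CON males (SD, *n* = 5), 190.5 ± 25.8 in CON females (SD, *n* = 4), 317 ± 155 in HOX males (SD, *n* = 3) and 356 ± 146 in HOX females (SD, *n* = 4). *SULT2A1* measured 34.7 ± 11.3, 30.2 ± 23.5, 81.1 ± 69.1 and 108 ± 95.7 CPM in the same order. Male against female, with treatment in the model, the log2 difference was −0.18 for *AOX1* (SE 0.238, 95% interval −0.65 to 0.29, edgeR adjusted *P* = 0.976) and −0.06 for *SULT2A1* (SE 0.477, interval −1.0 to 0.87, edgeR adjusted *P* = 0.993). Across all genes fitted, edgeR called 0.0233% for sex and DESeq2 0.0816%, and neither tool called *AOX1* or *SULT2A1*.

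The difference between HOX and CON livers had the same direction in both sexes. For *AOX1* the log2 fold change was 0.93 (SE 0.323) in males and 0.91 (SE 0.317) in females. For *SULT2A1* it was 1.23 (SE 0.452) in males and 1.84 (SE 0.757) in females. The interaction of sex and treatment was 0.02 for *AOX1* (SE 0.496, edgeR adjusted *P* = 0.999) and −0.61 for *SULT2A1* (SE 0.965, interval −2.50 to 1.28, edgeR adjusted *P* = 0.999). With 3 to 5 fetuses per sex and group, that interval includes a larger response of *SULT2A1* in either sex. The *SULT2A1* interaction was −1.58 without HOX animal 3, −1.30 without CON animal 6 and 0.13 without HOX animal 7, and that of *AOX1* ran from −0.42 to 0.32 with 1 liver left out. edgeR called 0.0% of genes for the interaction, 281 genes had an unadjusted *P* under 0.05, and DESeq2 called 0.0699%.

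**Figure D3:**
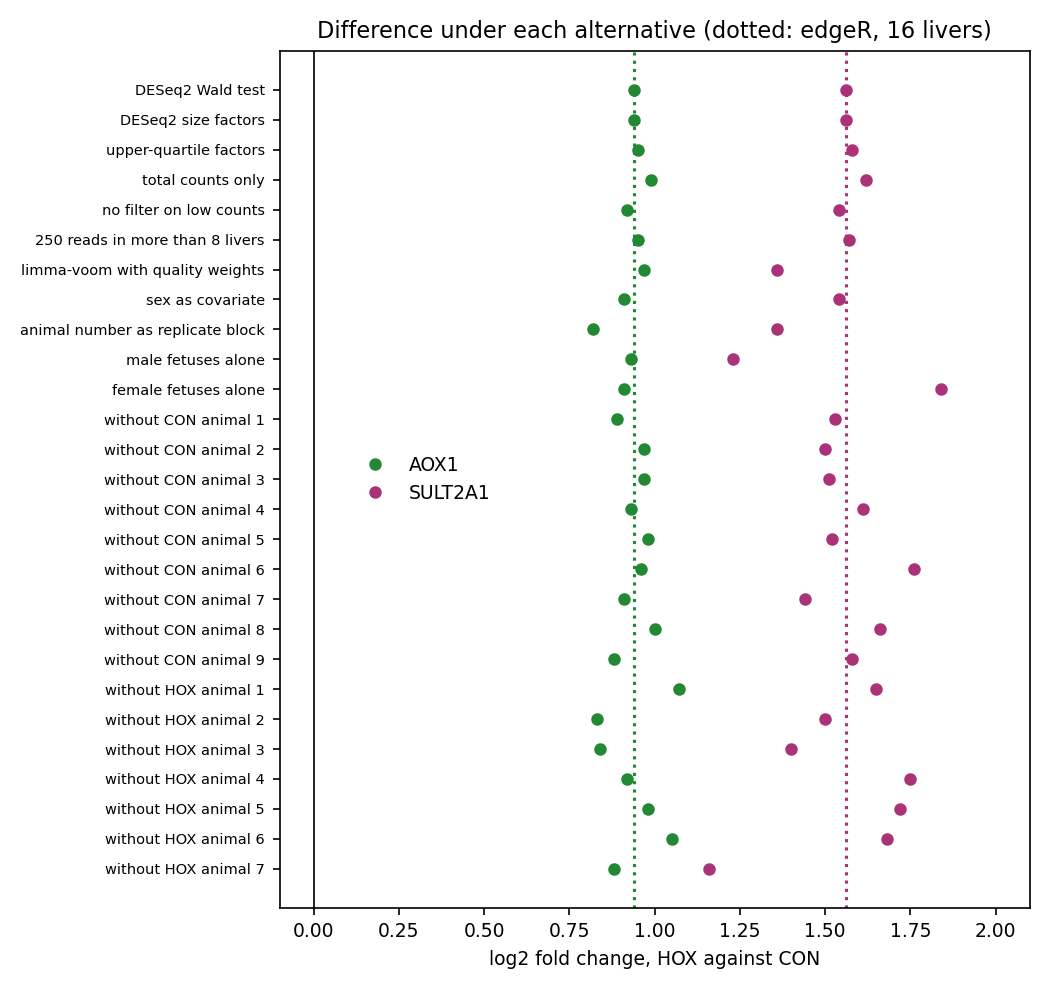
Log2 fold change of HOX against CON livers (horizontal axis) for *AOX1* (green) and *SULT2A1* (purple) under each other scaling, filter, tool, model or set of livers (rows), with a dotted line at the edgeR value over 16 livers. *AOX1* stays between 0.82 and 1.07 and *SULT2A1* between 1.16 and 1.84.

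To see which genes shared the pattern of each enzyme over livers, log2 CPM was centred on the group mean, which removes the difference between CON and HOX, and correlated over the 16 livers with that of *AOX1* or *SULT2A1*. These *r* values are descriptions without a *P* value. The livers share depth and cell makeup across genes, and the genes named are the extremes among the 428 others with a symbol. Symbols were known only for genes that the study had called on these livers, so HOX values beyond the CON range were partly selected for. *AOX1* and *SULT2A1* had *r* = 0.34 after centring. *SULT2A1* ranked 1990 of the 8579 other genes in likeness to *AOX1*, and *AOX1* ranked 797 in likeness to *SULT2A1*. Without HOX animal 1 the value was 0.36 and the ranks 1042 and 946.

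The gene most opposed to *AOX1* was *MRAS* (ENSOARG00020012177), a small GTPase of the RAS family. Over the 16 livers its *r* of −0.94 was the lowest of all 8579 genes, with −0.94 within CON, −0.95 within HOX and −0.92 without HOX animal 1. Within HOX livers alone it ranked 8548 of 8579 from the highest, so other genes were more opposed there. *MRAS* was a gene of low counts, and its counting error is not given here. *MRAS* ranged from 7.53 to 20.6 CPM in CON (median 10.8) and from 3.79 to 22.4 CPM in HOX livers (median 6.12). CON animals 9 and 1, the lowest CON livers in *AOX1*, had the highest *MRAS* of their group, at 20.6 and 18.3 CPM. HOX animals 2, 3, 4, 5 and 7, above the CON range in *AOX1*, were the 5 HOX livers below the CON range in *MRAS* (at least 5 were below it in 2.03% of all genes fitted), and HOX animal 1, the lowest HOX liver in *AOX1*, had the most *MRAS*. Despite the order of single livers, the group difference of *MRAS* over all livers was small beside its error, with a log2 fold change of −0.45 (SE 0.344). That value includes HOX animal 1, at 22.4 CPM the only HOX liver above the CON range. HOX animal 6 had 13.2 CPM and the 5 others had 3.79 to 6.93 CPM, against a CON mean of 12.1 CPM. The fold change of *MRAS* without HOX animal 1 is not reported here. The creatine kinase gene *CKB* (*r* = −0.81) and the small heat shock protein gene *CRYAB* (*r* = −0.82) also ran against *AOX1*. Without HOX animal 1 their *r* was −0.73 and −0.72. *CKB* was below the CON range in the same 5 HOX livers.

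Among genes that went up and down with *AOX1*, the closest with a symbol was *SPON2*, which encodes the secreted matrix protein spondin 2 (*r* = 0.79, rank 26 of 8579). It measured 203 ± 45.2 CPM in CON and 341 ± 152 CPM in HOX livers. It was above the CON range in HOX animals 2, 3, 4, 5 and 7, the livers in which *AOX1* was. At least 5 HOX livers were above it in 0.944% of all genes fitted. In HOX animal 1 *SPON2* was below the CON range, at 88.6 CPM. Its *r* was 0.41 within CON and 0.90 within HOX livers, and 0.68 over both groups without HOX animal 1. *CRIM1* (*r* = 0.77) and *PUM2*, an RNA-binding repressor (*r* = 0.74), were above the CON range in HOX animals 2, 3 and 7. At least 3 HOX livers were above it in 9.31% of all genes fitted. Without HOX animal 1 their *r* was 0.63 and 0.70.

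For *SULT2A1* the closest gene with a symbol was *XYLB*, which encodes xylulokinase (*r* = 0.77, rank 5 of 8579, 0.79 without HOX animal 1). It ranged from 49.9 to 109 CPM in CON (median 71.5) and from 66.3 to 162 CPM in HOX livers (median 97). HOX animals 2, 3 and 7 had 162, 140.3 and 157 CPM, above every CON liver, and HOX animal 4, lowest of its group in *SULT2A1*, was lowest in *XYLB* too. The transcription factor gene *STAT6* (*r* = 0.58) was above the CON range in the same 3 livers. Its *r* was 0.19 within CON and 0.86 within HOX livers. At least 3 HOX livers were above the CON range in 9.31% of all genes fitted.

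*RXRA*, which encodes the retinoid X receptor alpha, the partner of the receptors for bile acids, drugs and vitamin D, was next, with *r* = 0.66 (rank 30 of 8579). The value was 0.65 within CON and 0.68 within HOX livers. *RXRA* varied little, from 103 to 126 CPM in CON and from 112 to 145 CPM in HOX livers. CON animal 6 and HOX animal 7, which had the most *SULT2A1* of their groups, also had the most *RXRA*. It was above the CON range in HOX animals 3, 5, 6 and 7 (at least 4 were in 3.32% of genes), so the livers did not coincide with those of *SULT2A1*. *KL* (klotho, *r* = 0.60) and *SPAG9* (*r* = 0.53) completed the 5 closest. Opposed to *SULT2A1* were *TMED1* (*r* = −0.66), *AFP* (*r* = −0.64) and *TBC1D13* (*r* = −0.63). *AFP*, the alpha-fetoprotein gene that is shut off as the liver matures, had *r* = −0.55 within CON and −0.93 within HOX livers. It measured 603 ± 654 CPM in CON, from 47.1 to 2156, and 75.6 ± 41.8 CPM in HOX livers (log2 fold change −2.99, SE 0.665).

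**Figure D4:**
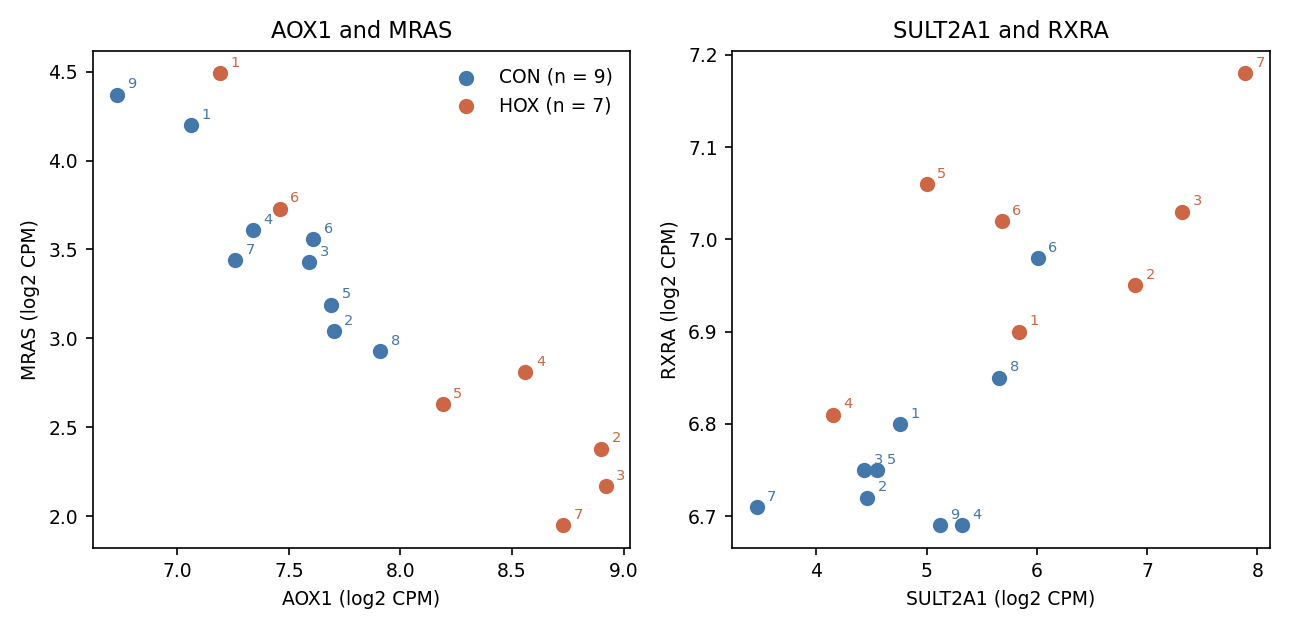
Log2 CPM of *MRAS* against *AOX1* (left) and of *RXRA* against *SULT2A1* (right) in the 9 CON and 7 HOX livers, labelled by animal number. *MRAS* is lower the higher *AOX1* is in both groups (*r* = −0.94 after centring on the group means), and *RXRA* is higher with *SULT2A1* (*r* = 0.66).

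Other genes of the surrounding pathways were looked up from 5 lists with 128 symbols. Symbols were known only for genes that the study had called on these same livers, so the counts that follow are not independent evidence of a direction. They gave 17 tested genes besides *AOX1* and *SULT2A1*, 5 higher and 12 lower in HOX livers, with a median log2 fold change of −0.44, against 0.0054 over all genes fitted. Of the 427 tested genes with a symbol, *AOX1* and *SULT2A1* left out, 64.9% were lower in HOX livers, with a median of −0.21, so genes that could be named were more often lower from the start. edgeR called 0 of the 17, where it called 0.0583% of all genes. Of the 17, 15 had an unadjusted edgeR *P* under 0.05, as did 71.4% of those 427 genes with a symbol and 11.9% of all genes. DESeq2 called 11 of the 17, 2 higher and 9 lower, where it called 2.76% of all genes, and 1.15% as higher. Its share among the genes with a symbol is not reported here, so nothing is read from this count.

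Of 10 genes for molybdenum enzymes and their cofactor, *MOCS2* was found besides *AOX1*. It encodes molybdopterin synthase, which makes the cofactor that aldehyde oxidase needs, and measured 49.8 ± 9.74 CPM in CON and 40 ± 7.69 CPM in HOX livers (log2 fold change −0.32, SE 0.136, edgeR adjusted *P* = 0.382). Of 18 genes for sulfation, which include the synthases of the sulfonate donor, *SULT2A1* alone had a symbol here. The list for receptors and factors of drug and bile acid response gave 3 of 21 genes. *RXRA* had 109 ± 7.44 CPM in CON and 128 ± 10.6 CPM in HOX livers (log2 fold change 0.22, SE 0.0709, edgeR adjusted *P* = 0.272), and *STAT6* a log2 fold change of 0.36 (SE 0.113). For both of these, 7 of 7 HOX livers exceeded the CON mean, as in 2.84% of all genes. For *TIPARP*, a target of the aryl hydrocarbon receptor (−0.44, SE 0.138), 7 of 7 were under it, as in 6.07% of all genes.

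The largest list, other enzymes and transporters of drug metabolism, gave 11 tested genes, 9 of them lower in HOX livers, with a median log2 fold change of −0.62. They included the conjugating enzyme genes *GLYAT* (glycine conjugation, −1.20, SE 0.347), *MGST1* (−0.68, SE 0.186) and *GSTO1* (−0.53, SE 0.126), the carbonyl reductase gene *CBR1* (−0.76, SE 0.159, for ENSOARG00020014533, and −0.78, SE 0.291, for ENSOARG00020014594, which carries the same symbol) and the organic anion transporter gene *SLC22A7* (−0.62, SE 0.149). *ALAS1*, the first enzyme of heme synthesis, had −0.48 (SE 0.145). The 2 genes above zero were *AKR7L* (0.50, SE 0.251) and the nucleoside transporter gene *SLC29A1* (0.34, SE 0.126). In the bile acid and sterol list, *PEX26* (0.27, SE 0.107) and *HSD17B10* (−0.11, SE 0.156) were found of 25 genes.

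**Figure D5:**
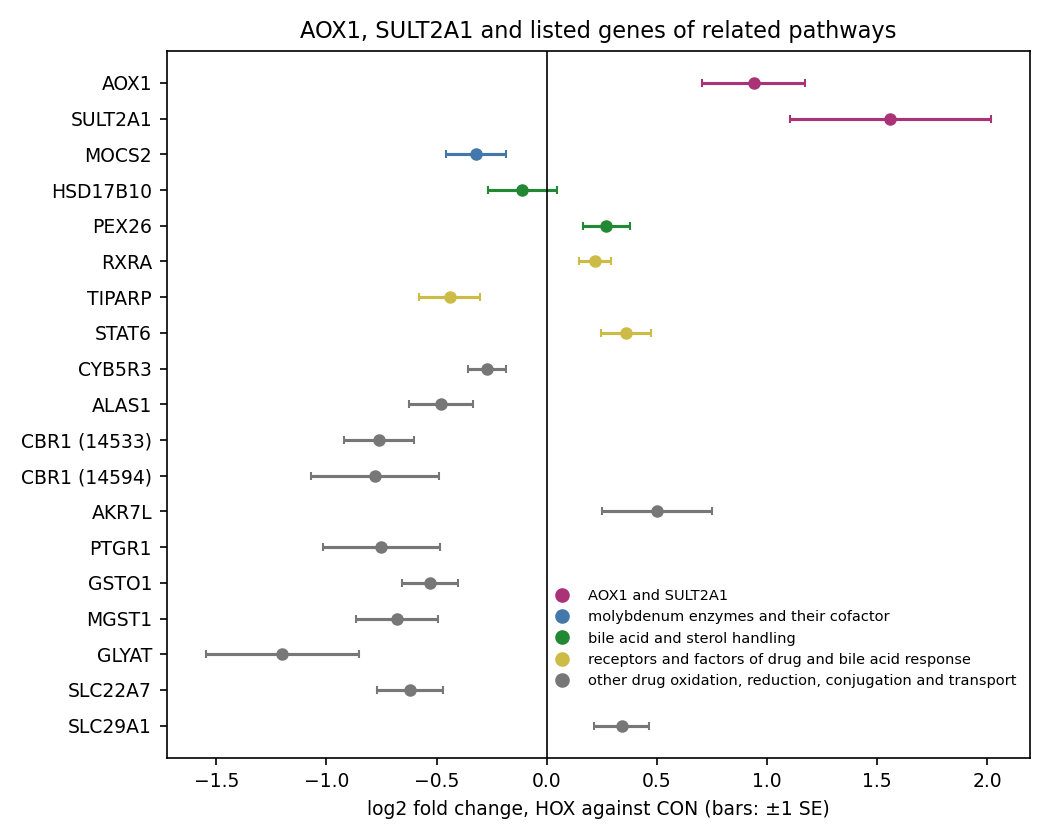
Log2 fold change of HOX against CON livers ± 1 SE (horizontal axis) for *AOX1*, *SULT2A1* and the 17 other tested genes of the pathway lists, coloured by list. *AOX1* (0.94) and *SULT2A1* (1.56) lie to the right of zero, and 12 of the 17 others lie to the left.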

How the data were processed

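The authors extracted total RNA from frozen liver, sequenced polyA-enriched libraries as 2 × 150 bp pairs, mapped them with STAR (2.7.10b in the submitters' processing notes) to ARS-UI_Ramb_v1.0 and deposited raw counts of reads per Ensembl gene, neither normalized nor filtered. The rule for counting and the use of strand are not given in the sources used here, so the counts of either gene are uncertain where a near-identical copy or an overlapping gene shares its reads.

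Samples were grouped by the labelled treatment. The 8580 genes that reached 250 reads in 8 or more livers held 97.7% of reads and were fitted in R 4.3.3 with edgeR 4.0.16 (TMM, quasi-likelihood test, robust=FALSE). Terms were treatment alone, treatment with sex, or both with their interaction, and genes were called at a Benjamini-Hochberg adjusted *P* under 0.15, the study's threshold. The study's methods name DESeq2 for its comparison, and DESeq2 1.42.0 and limma 3.58.1 were run as alternatives. SE came from the coefficient and its F statistic, intervals are coefficient ± about 2 SE, and log2 CPM used a prior count of 2. Relations within a group were tested by exact permutation in Python 3.11.15 with numpy 2.4.6, with scipy 1.17.1 as a check, and plots used matplotlib 3.10.9.

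Both genes and all lists were chosen with earlier results of these data known. Symbols came from the study's supplementary list of called genes (438 identifiers with a symbol), which left most listed genes unnamed. The rule for named genes took the list members found and, for each enzyme, the 5 genes with a symbol closest to it and the 3 most opposed. Each liver counts as 1 replicate. No pair of libraries was a duplicate (chi-square per degree of freedom at least 63.2). Fits were tested on simulated counts. The ranking was checked only with planted copies of the *AOX1* profile with little noise, which were bound to rank near the top. 1 listed gene is not reported here and was left out of all list counts. A planned search for promoter motifs was not done here.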

Additional observations from a re-analysis of the deposited data

How the results depend on the processing

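*AOX1* and *SULT2A1* were higher in HOX livers under all 28 alternatives run, with log2 fold changes of 0.82 to 1.07 and 1.16 to 1.84. With 1 liver left out at a time the ranges were 0.83 to 1.07 and 1.16 to 1.76. With the animal number as a replicate block they were 0.82 and 1.36. Animals of a number are different fetuses, and same-numbered livers did not all deviate together (*r* from −0.31 to 0.15, 0 of 7 correlating best with its own number), so the numbers do not pair them. With that block edgeR called 0 genes for HOX against CON, 756 having an unadjusted *P* under 0.05, in place of the 5 called without it. The number of calls moved more with the tool. DESeq2 called 237, edgeR without the filter on low counts 1, and DESeq2 without HOX animal 1, a choice made after seeing the data, 523. Leaving out each liver gave 1 to 47 calls with edgeR, the 47 without HOX animal 5. It gave 12 without HOX animal 1, 10 without CON animal 6, 8 without CON animal 2, 3 without CON animal 1, 2 without CON animal 3 or 8, and 1 without CON animal 4 or 9 or HOX animal 2, 3, 6 or 7. For sex, edgeR called 2 genes (1 to 2 with each liver left out, the 1 without CON animal 2, 5, 6, 7 or 8 or HOX animal 2) and DESeq2 7. For the interaction, edgeR called 0 (0 to 3 with each liver left out, the 3 without HOX animal 4) and DESeq2 6. With each liver left out, the sex difference ran from −0.36 to 0.26 for *SULT2A1*, and the interaction from −0.42 to 0.32 for *AOX1* and from −1.58 to 0.13 for *SULT2A1*, on the log2 scale. None of the 14 relations within groups passed the adjusted threshold of 0.05 under the alternatives tested, and 8 alternative values of *r* or rho changed sign or reached 0.0. That count left out single livers only for *AOX1* with *SULT2A1*. Other relations changed sign with 1 liver left out too. Among them, without HOX animal 1, *AOX1* in HOX livers went from 0.51 to −0.27 with the hepatocyte mean and from −0.16 to 0.56 with total reads. *AOX1* and *SULT2A1* in CON livers ran from −0.03 to 0.37 with 1 liver left out. Without the 2 farthest livers, *r* with total reads became 0.31 for *AOX1* and 0.26 for *SULT2A1* in CON, and 0.43 for *AOX1* in HOX livers (rho 0.0), and *AOX1* with the hepatocyte mean −0.14 in HOX livers. In HOX livers *SULT2A1* had rho −0.07 with the erythroid mean, and *r* = −0.0 with the hepatocyte mean under DESeq2 size factors. Of the 5 genes closest to *AOX1*, 2 were among the 5 closest in CON livers alone and 3 without HOX animal 1, and for *SULT2A1* the counts were 0 and 4, so those names depend on the livers used. The cause of these shifts was not tested. Each gene had at least 291 reads per liver.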

Other observations

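Some genes had opposite relations to *AOX1* or *SULT2A1* within groups and between groups. *PCYOX1*, which encodes prenylcysteine oxidase, had *r* = 0.73 with *AOX1* after centring on the group means. The value was 0.70 within CON and 0.74 within HOX livers, and 0.55 over both groups without HOX animal 1. *PCYOX1* was nevertheless lower in HOX livers, at 132 ± 39.5 CPM against 219.9 ± 44.1 CPM in CON. It was below the CON range in 6 of 7 HOX livers (at least 5 were in 2.03% of all genes fitted). *CWC27*, a spliceosome gene, had *r* = 0.75 with *AOX1*, and 0.58 without HOX animal 1. *CWC27* measured 16.8 ± 1.49 CPM in CON and 13.6 ± 1.89 CPM in HOX livers, with 5 of 7 below the CON range. *TBC1D13* ran against *SULT2A1* within groups (*r* = −0.63, −0.72 within CON and −0.70 within HOX livers), and like *SULT2A1* it was higher in HOX livers, at 15.6 ± 1.23 CPM against 12.8 ± 1.5 CPM in CON, with 4 of 7 above the CON range (at least 4 were in 3.32% of genes). These genes were singled out after their values were seen, and no test of the pattern was run.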
